A study of Mus musculus with 2 samples.

Results

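The genes described here are 10 members of the Wnt and beta-catenin system of the liver lobule, Axin2, Lgr5, Rnf43, Znrf3, Tbx3, Sp5, Lect2, Rspo3, Wnt2 and Ctnnb1. They were chosen by name, as every non-control probe whose gene name on the array is one of these symbols, which gave 12 probes of 39429, for 10 of 30165 gene names. Axin2 and Lgr5 had 2 probes each and the other members 1. The comparison was between the liver of a Drp1 knockout mouse and that of a wild type mouse, both male and C57BL/6J, with 1 array per group. Drp1, encoded by Dnm1l, is the GTPase that divides mitochondria. Both mice had been kept for 24 weeks, from the age of 4 weeks, on a lard-based high-fat diet with 24% fat, which supplied 45% of its energy. The title of the series places the disruption in the liver. The promoter or Cre line behind it, and whether these livers followed the 17-hour fast or the 4-hour refeeding of the study, are not given in the sources used here. The study's title also names Fgf21, and the arrays compared the 2 genotypes under prolonged high-fat feeding.

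In the canonical Wnt pathway, secreted Wnt ligands bind Frizzled and Lrp receptors on the cell surface and thereby stop the destruction complex, built on Axin and Apc, from degrading beta-catenin. Beta-catenin then enters the nucleus and activates target genes with TCF and LEF factors. R-spondins strengthen the signal by binding Lgr receptors and removing the ligases Rnf43 and Znrf3, which otherwise clear Frizzled from the membrane. In mouse liver, Wnt ligands and R-spondin 3 come largely from endothelial cells at and near the central vein, and the hepatocytes around that vein carry a beta-catenin programme that sets them apart from hepatocytes near the portal vein.

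The probes are 60-base oligonucleotides. The first 30 bases of 7 of them are shown, read 5′ to 3′ from the array's design, for the 2 members with a pair of probes and for the 3 others with the greatest differences.
Axin2, A_66_P134405: tcctgggggaacagattattattgctactc
Axin2, A_55_P2000783: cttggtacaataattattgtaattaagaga
Lgr5, A_52_P30169: acctctagtgcttatatagaaacttgtgtg
Lgr5, A_55_P2126192: catgtaaatacgtagtgcttgtaaatagat
Znrf3, A_55_P2145252: actccactggagtctaggcacaacccggga
Rspo3, A_55_P2163659: ggatactactttctaacaaggtgtatctag
Lect2, A_55_P2074762: gccagggagtttgacattttcgatttttag

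In the mm9 coordinates of the files, the 2 Axin2 probes lie on the plus strand at chr11:108803927-108803986 (position 1971 of the transcript) and chr11:108812034-108812093 (position 4196). The whole first probe holds 29 G or C bases and the whole second one 12. The Lgr5 probes lie on the minus strand at chr10:114900686-114900745 and chr10:114887403-114887462, and each holds 21 G or C bases. The first was designed on an Ensembl transcript and the second on the RefSeq one. The Znrf3 probe is at chr11:5180918-5180977, Rspo3 at chr10:29172930-29172989 and Lect2 at chr13:56643829-56643888, all on the minus strand. The remaining probes are those of Rnf43 at chr11:87548958-87549017, Tbx3 at chr5:120134511-120134570, Sp5 at chr2:70315688-70315747 and Ctnnb1 at chr9:120869274-120869333, on the plus strand, and Wnt2 at chr6:17938994-17939053, on the minus strand. Axin2, Rnf43 and Znrf3 are thus on chromosome 11, and Lgr5 and Rspo3 on chromosome 10. Exon and UTR annotation of mm9 was not used here.

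The knockout array was brighter, with a 75th percentile of signal of 722 units against 461 on the wild type array, a ratio of 1.57. Levels below are therefore multiples of each array's own 75th percentile, and differences are log2 values, knockout minus wild type. A probe counted as measured where it was well above background, which held for 57.1% of probes on the knockout and 50.6% on the wild type array. Over the 19470 probes measured on both, the median difference was -0.11 and the SD between probes 0.57. With 1 array per group there is no test, and the ± beside a member's difference is the scanner program's own error estimate for its 2 spots, which leaves out the spread between mice. As a measure of how far single probes can be trusted, the 2772 genes with 2 measured probes had a median gap of 0.24 between those probes' differences, and 10% of them a gap above 0.74. The targeted gene Dnm1l was at 1.75 in the knockout and 2.03 in the wild type by its 1 probe (-0.21), and since the deleted part of the gene is not stated, this does not check the label.

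Of the 12 member probes, 8 were measured on both arrays, 1 on the knockout array alone and 3 on neither. The 8 measured probes belong to 8 members. None of them differed by 1.5-fold in either direction. Across all measured probes, 8.60% stood 1.5-fold or more above the wild type and 13.5% as far below it. Of the 8 member differences, 3 were above 0 and 5 below, from -0.58 for Lgr5 to 0.55 for Znrf3. Their median was -0.11, the same to 2 decimals as the median of all measured probes. The member differences had an SD of 0.42, against 0.57 over all probes.

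**Figure D1:**
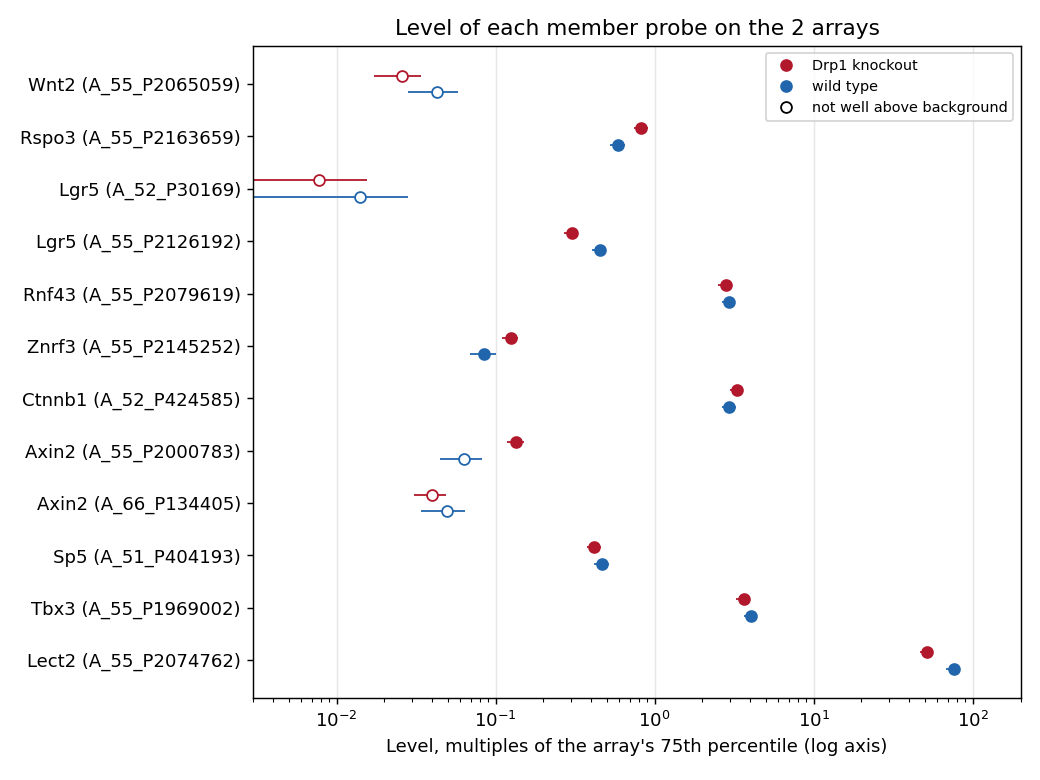
Level of each of the 12 member probes on the Drp1 knockout array (red, upper point) and the wild type array (blue, lower point), in multiples of the array's 75th percentile on a log axis. Bars are the scanner program's error of the spot, open points were not well above background, and levels of different probes are not comparable with each other. Points are open on both arrays for Wnt2, Lgr5 A_52_P30169 and Axin2 A_66_P134405, and on the wild type array alone for Axin2 A_55_P2000783.

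Among the ligands, Wnt2, a Wnt made by liver endothelium, could not be measured. Its signal was 18.5 units on the knockout array and 19.8 on the wild type array, not well above background on either, and no fold is given. Rspo3, the R-spondin of the central vein, was measured on both, at 595 units in the knockout and 271 in the wild type. That is a level of 0.824 in the knockout against 0.589 in the wild type, 1.40-fold higher in the knockout (0.49 ± 0.21). In the order of all measured probes, 88.6% lay below it. Among the 1000 measured probes closest to it in level, the median was -0.01 and the SD 0.59, so the Rspo3 difference was 0.85 SD above them.

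Rspo3 is made by endothelial and stellate cells, and the values of markers of those cells are given beside it. In a bulk sample, fewer cells of a type and less RNA per cell cannot be told apart. Over all measured genes, 8.42% were at least 1.5-fold higher and 13.4% as far lower, with a median of -0.11. All 10 stellate cell and fibroblast markers were measured, with 5 at least 1.5-fold higher in the knockout, 1 lower and a median of 0.65. Their summed level was 77.1 in the knockout and 54.4 in the wild type. Of 10 general liver endothelial markers 9 were measured, with 2 higher, 0 lower, a median of 0.17 and summed levels of 43.1 in the knockout and 45.4 in the wild type. Tek was well above background in the knockout alone. Of 6 markers listed for central vein endothelium 5 were measured, with 0 past 1.5-fold, a median of 0.24 and summed levels of 2.11 in the knockout and 1.82 in the wild type. The remaining one, the ligand Wnt9b, was well above background in the knockout alone, at least 1.22-fold higher. Over all probes, 7.72% were detected on the knockout array alone. The part of these cells in the Rspo3 value was not tested.

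Lgr5, a receptor for R-spondins that marks pericentral hepatocytes, was read by 2 probes with different outcomes. The probe on the RefSeq transcript gave 217 units in the knockout and 207 in the wild type. After scaling, its level was 0.301 in the knockout against 0.450 in the wild type, lower in the knockout by -0.58 ± 0.21 on the log2 scale, which is just short of 1.5-fold. Among all measured probes 13.6% lay below it, and it stood 1.06 SD below probes of like level. The unscaled signal was slightly higher in the knockout, by less than the scanner's errors of 22.5 units in the knockout and 21.8 in the wild type, so the direction of the difference is that of the scaled values and not of the signals themselves. The Ensembl probe was at 5.61 units in the knockout (error 5.59) and 6.49 in the wild type (error 6.47), and was not well above background on either array.

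Rnf43 and Znrf3 are related membrane ubiquitin ligases that clear Frizzled receptors, and both are themselves beta-catenin targets. Rnf43 gave 2020 units in the knockout and 1350 in the wild type, or levels of 2.80 in the knockout and 2.93 in the wild type. Its difference was -0.07 ± 0.20, and 53.9% of measured probes lay below it. Znrf3 was dim, at 89.6 units in the knockout and 39.1 in the wild type. Its level was 0.124 in the knockout against 0.0848 in the wild type, 1.46-fold higher in the knockout (0.55 ± 0.31). Although 90.4% of measured probes lay below it, it stood only 1.02 SD above probes of like level, and with normexp background correction its difference was -0.06. The stricter filter on dim probes left Znrf3 out.

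Ctnnb1, which encodes beta-catenin, had 2376 units in the knockout and 1355 in the wild type. Its level was 3.29 in the knockout and 2.94 in the wild type, a difference of 0.16 ± 0.20. The array reads its mRNA, while the pathway acts on the stability of the protein, which these data do not measure.

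Axin2, a scaffold of the destruction complex and a feedback target that is induced wherever the pathway is active, was near background. Its probe at position 1971 gave 28.7 units in the knockout and 22.7 in the wild type and was not well above background on either array. The probe at position 4196 gave 97.0 units in the knockout, well above background, and 29.1 in the wild type, not well above background. Against its own dim wild type signal this is 2.12-fold higher in the knockout (log2 bound 1.09 ± 0.46). The wild type log2 level of -3.98 lay above the lowest one well above background on that array, -4.08. The bound is therefore the plain ratio of the 2 spots. With normexp background correction the bound was 0.12. Detection on the knockout array alone was common, at 7.72% of all probes, while 1.14% were detected on the wild type array alone. Among the 120 probes with at most 12 G or C bases, as in this Axin2 probe, 8.33% were detected on the knockout array alone. Most of those 120 probes were detected on neither array, at 80% against 41.7% of all probes. Of the rest, 10 were detected on the knockout array alone and 13 on both, against 3043 and 19470 over all probes. The probe at position 1971 was too dim to show a difference or its absence, so the Axin2 value rests on the probe at position 4196 alone.

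Among the transcription factors, Sp5, a direct target of beta-catenin, had 302 units in the knockout and 215 in the wild type. Its level was 0.418 in the knockout and 0.467 in the wild type, a difference of -0.16 ± 0.21. Tbx3, a T-box repressor found in pericentral hepatocytes, had 2618 units in the knockout and 1856 in the wild type, with levels of 3.63 in the knockout and 4.03 in the wild type and a difference of -0.15 ± 0.20. Both differences were smaller than the scanner's error and close to the median of all probes.

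Lect2, a protein secreted by hepatocytes and a beta-catenin target in mouse liver, was the brightest probe of the set. It gave 37217 units in the knockout and 35042 in the wild type, and 0 spots on either array were saturated. As for Lgr5, the unscaled signal was slightly higher in the knockout and the scaled level lower. Its level was 51.6 in the knockout against 76.1 in the wild type, 1.48-fold lower in the knockout (-0.56 ± 0.20). Bright probes were lower in general: the 1000 measured probes nearest to Lect2 in level had a median of -0.31 and an SD of 0.36, which puts Lect2 0.69 SD below them. After loess normalization, which removes this dependence on brightness, the difference was -0.24. Hepatocyte markers moved with it, with 6 measured, 0 higher, 2 at least 1.5-fold lower and a median of -0.54. Over all measured genes, 13.4% were as far below the wild type, with a median of -0.11. The summed levels of the hepatocyte markers were 1502 in the knockout and 2156 in the wild type. Their part in the Lect2 and Lgr5 values was not tested.

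**Figure D2:**
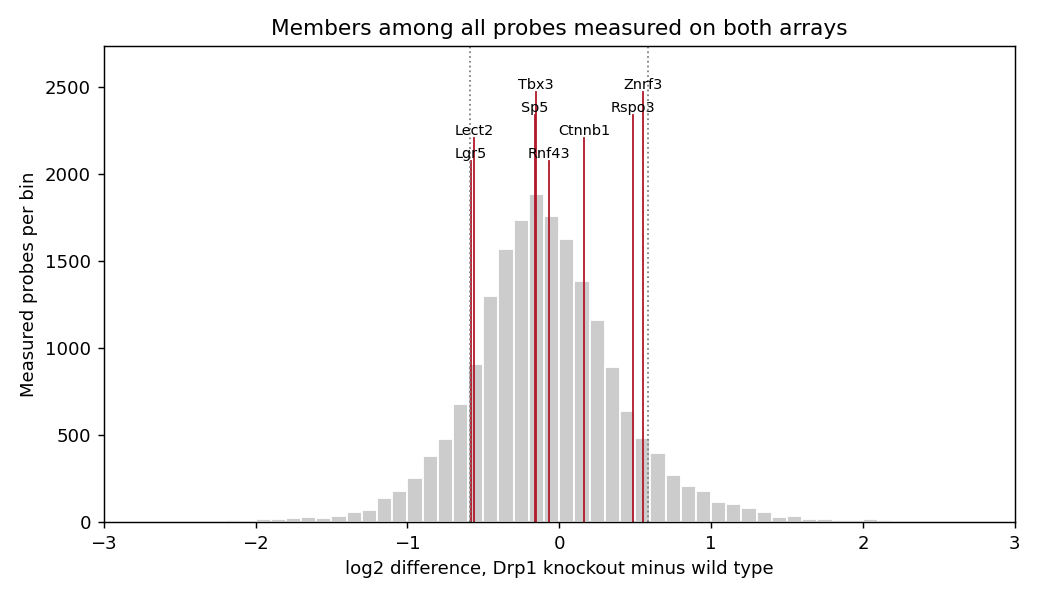
Number of probes measured on both arrays by log2 difference, knockout minus wild type, in bins of equal width. Red lines mark the 8 measured members and dotted lines 1.5-fold. The members spread over the body of the distribution, from Lgr5 at -0.58 to Znrf3 at 0.55, and 45 probes lie beyond 3 in either direction and are not drawn.

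The member differences depended in part on the scaling. Quantile normalization, loess normalization and the authors' deposited value table put 4 of the 8 above 0 and 4 below, with medians of 0.0045, 0.00064 and 0.0048 in that order. Rnf43 changed sign under these 3 settings, at 0.03 to 0.04, and also with centring on the median. Lgr5 was at -0.62 with quantile normalization, -0.60 with loess and -0.59 with the deposited table, just past 1.5-fold lower. Scaled to the E1A spike-in spots, all 8 members were above 0, with a median of 0.67, and 6 of them were at least 1.5-fold higher. This shift was shared by the whole array, since 58.7% of all measured probes then stood 1.5-fold or more above the wild type and the median of all measured probes was 0.68. The spike-in spots themselves differed by -0.14 before scaling. Of all probes past 1.5-fold, 39.0% were higher in the knockout. That share was 54.7% with centring on the median, 50.8% with loess, 97.7% with spike-in scaling and 23.6% without a filter on dim probes. Rspo3 and Ctnnb1 were above 0 under every one of the 8 alternatives, while Lgr5, Sp5, Tbx3 and Lect2 were below 0 under 7 of them and above 0 with spike-in scaling.

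**Figure D3:**
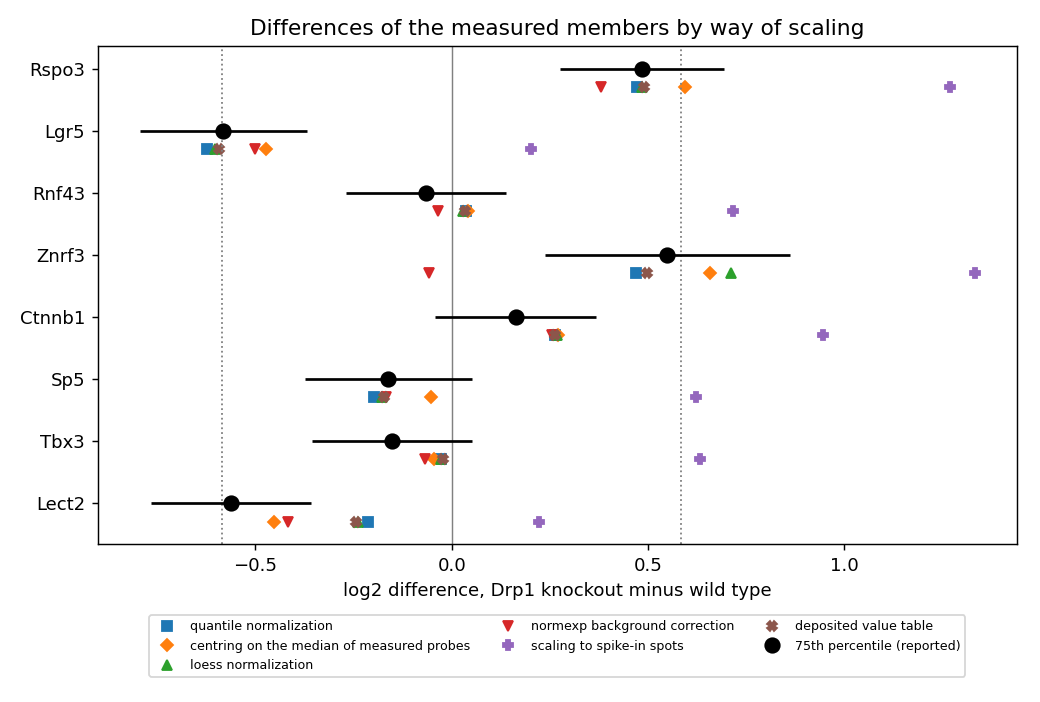
Log2 difference, knockout minus wild type, of the 8 members measured on both arrays. Black points with bars are the values scaled to the 75th percentile with the scanner's error, coloured marks below them are the same probes under 6 other ways of processing, and dotted lines mark 1.5-fold. Spike-in scaling moves all 8 to the right by 0.78, and Znrf3 moves to -0.06 with normexp.

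Other genes of the pathway, listed by their roles, set the members in context. The lists were chosen with earlier results of these data known and are given as counts. Over all 15385 measured genes, 8.42% reached 1.5-fold above the wild type and 13.4% reached 1.5-fold below it, with a median of -0.11. Of 23 listed ligands, R-spondins and secretion factors, 7 were measured on both arrays, 3 were detected on the knockout array alone and 13 on neither. Among the 7, 1 was higher and 2 lower (median -0.17). Porcn, the acyltransferase that makes Wnts fit for secretion, was at 0.174 in the knockout against 0.368 in the wild type (-1.08) and Wnt5b at 1.44 in the knockout against 2.50 in the wild type (-0.80). Rspo1 was at 0.267 in the knockout against 0.165 in the wild type (0.70), Wnt1 differed by -0.48 and Wls, the Wnt carrier, by 0.21. The stricter filter on dim probes left 2 of the 7, Wnt5b and Wnt1, with 0 higher and 1 lower. Over all genes, 5.70% were then higher and 11.0% lower. Porcn and Rspo1 were left out. Wnt2 was likewise detected on neither array, as were 41.7% of all probes.

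Of 17 listed receptors, 8 were measured on both arrays, with 0 higher, 3 lower and a median of -0.48. The 3 were Fzd8 (-0.78), Fzd4 (-0.75) and Lrp5 (-0.65), and Lrp6 (-0.55, from probes at -0.69 and -0.40) and Lgr4, the relative of Lgr5 (-0.40), followed. Fzd8 was dim, at 0.165 in the knockout against 0.284 in the wild type, and the stricter filter on dim probes left it out. Fzd10 was detected on the wild type array alone, at least 11.2-fold lower in the knockout. That array also carried all 6 listed skeletal muscle markers, none of which was well above background in the knockout, and the part of muscle RNA in the Fzd10 value was not tested. The 16 listed inhibitors had 4 measured members, of which 1 was higher. Dkk3 was at 1.06 in the knockout against 0.359 in the wild type (1.56), while Kremen1 (-0.19), Dkk4 (-0.03) and Notum, an enzyme that inactivates Wnts and is itself a target, at 7.94 in the knockout against 7.83 in the wild type (0.02), lay near 0.

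All 16 listed members of the destruction complex and its regulators were measured, with 1 higher, 2 lower and a median of -0.10. Dvl3, a Dishevelled protein that relays the signal from Frizzled, was at 7.16 in the knockout against 15.6 in the wild type (-1.12), and the scaffold Apc differed by -0.96. Csnk1e (0.60), Gsk3a (-0.49) and Csnk1d (0.44) were next, the last from probes at 0.15 and 0.72. Of 16 nuclear partners 13 were measured, with 0 higher, 3 lower and a median of -0.13. The corepressors Tle4 (-0.95) and Tle2 (-0.73) and the DNA-binding factor Tcf7l2 (-0.72, from probes at -0.94 and -0.50) were lower, Tle3 was at -0.55 and Ctbp2 at 0.53. Tle4 was dim, at 0.0545 in the knockout against 0.105 in the wild type. With the stricter filter on dim probes, 9 nuclear partners were left, with 0 higher and 1 lower, against 5.70% higher and 11.0% lower over all genes. Tcf7 was detected in the knockout alone, as were 7.72% of all probes. By the greatest bound among its 2 probes it was at least 1.39-fold higher.

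Of 13 further genes known as beta-catenin targets in other tissues, 11 were measured, with 3 higher, 2 lower and a median of 0.37. The higher ones were Ccnd1, cyclin D1, at 15.5 in the knockout against 3.92 in the wild type (1.98), Myc at 0.739 in the knockout against 0.239 in the wild type (1.63) and Sox9 at 0.221 in the knockout against 0.0933 in the wild type (1.24). Ephb2 (-0.78) and Sp8 (-0.65) were lower. Sp8 was dim, at 0.0622 in the knockout against 0.0978 in the wild type, and the wild type level of Sox9 was close to that. With the stricter filter on dim probes, 8 of these targets were left, with 1 higher (Ccnd1) and 1 lower (Ephb2). Over all genes, 5.70% were then higher and 11.0% lower. Myc, Sox9 and Sp8 were left out. Fgf18 was detected in the knockout alone, as were 7.72% of all probes. By the greatest bound among its 2 probes it was at least 1.43-fold higher. None of the 3 higher genes is specific to the Wnt pathway, and Sox9 also marks bile duct cells. Of the 5 bile duct markers, 3 were measured (Krt19 at 0.22, Sox9 at 1.24 and Spp1 at 1.40), with summed levels of 1.02 in the knockout and 0.447 in the wild type. Krt7 was detected in the knockout alone and Epcam on neither array, and the part of these cells was not tested.

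Pericentral hepatocyte genes, which the members regulate or accompany in the lobule, were measured for 20 of 22, with 2 higher, 10 lower and a median of -0.54. The 6 measured general hepatocyte markers had the same median to 2 decimals, -0.54, with summed levels of 1502 in the knockout and 2156 in the wild type. Periportal hepatocyte genes had a median of -0.13. Bright probes were lower in general, with a median of -0.31 in the brightest of 10 groups of probes by level. The marker median was taken with the reported scaling only. The part of the hepatocyte markers and of brightness in the pericentral values was not tested. Glul, glutamine synthetase of the innermost pericentral hepatocytes, was at 26.9 in the knockout against 51.2 in the wild type (-0.92). Oat was at 29.3 in the knockout against 48.6 in the wild type (-0.73) and Cyp2e1 at 312 in the knockout against 471 in the wild type (-0.59). Cyp1a2 was at 3.76 in the knockout against 3.27 in the wild type (0.20). Rhbg, an ammonia transporter that neighbours Glul in the lobule, went the other way at 4.70 in the knockout against 2.04 in the wild type (1.21). The greatest negative differences in this list were those of Car3, at 38.6 in the knockout against 132 in the wild type (-1.77), Lhpp (-1.43, from probes at -1.68 and -1.17) and the glutamate transporter Slc1a2 (-1.35, from 3 probes between -1.71 and -1.17). Gstm3 was at 2.49, but its 2 probes gave 1.22 and 3.75 and the family has closely similar members. Car3 is also a gene of muscle and fat. Besides the muscle markers, the fat cell gene Cfd was 33.6-fold lower in the knockout, Fabp4 differed by 0.01, and Adipoq, Plin1 and Lep were not well above background on either array. The part of these tissues in the Car3 value was not tested.

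Periportal hepatocyte genes, the opposite end of the lobule, numbered 24 and were all measured: 5 were higher and 4 lower, and the median was -0.13. Aldh1b1 was at 6.15 in the knockout against 2.77 in the wild type (1.15), Tat at 45.4 in the knockout against 22.1 in the wild type (1.04), Cdh1 at 0.697 in the knockout against 0.347 in the wild type (1.01), Pigr at 23.9 in the knockout against 47.9 in the wild type (probes at -1.13 and -0.88) and Igf1 at 6.88 in the knockout against 11.3 in the wild type (-0.72, the mean of 5 probes). Pericentral minus periportal, the medians differed by -0.42 as reported. Centring and spike-in scaling add the same constant to every difference and cannot change this gap, and the stricter filter kept all these genes. Under the other alternatives the gap was -0.54 to -0.30, but the pericentral median itself changed. With loess it was -0.15 and with quantile normalization -0.12, and 5 of the 20 genes were then at least 1.5-fold lower in place of 10. Over all measured genes that share was 9.496% with loess and 11.97% with quantile normalization, against 13.4% as reported. With spike-in scaling the pericentral median was 0.24. The 8 measured members, at a median of -0.11, and the pericentral enzymes, at -0.54, are given side by side, and the difference between them was not tested.

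**Figure D4:**
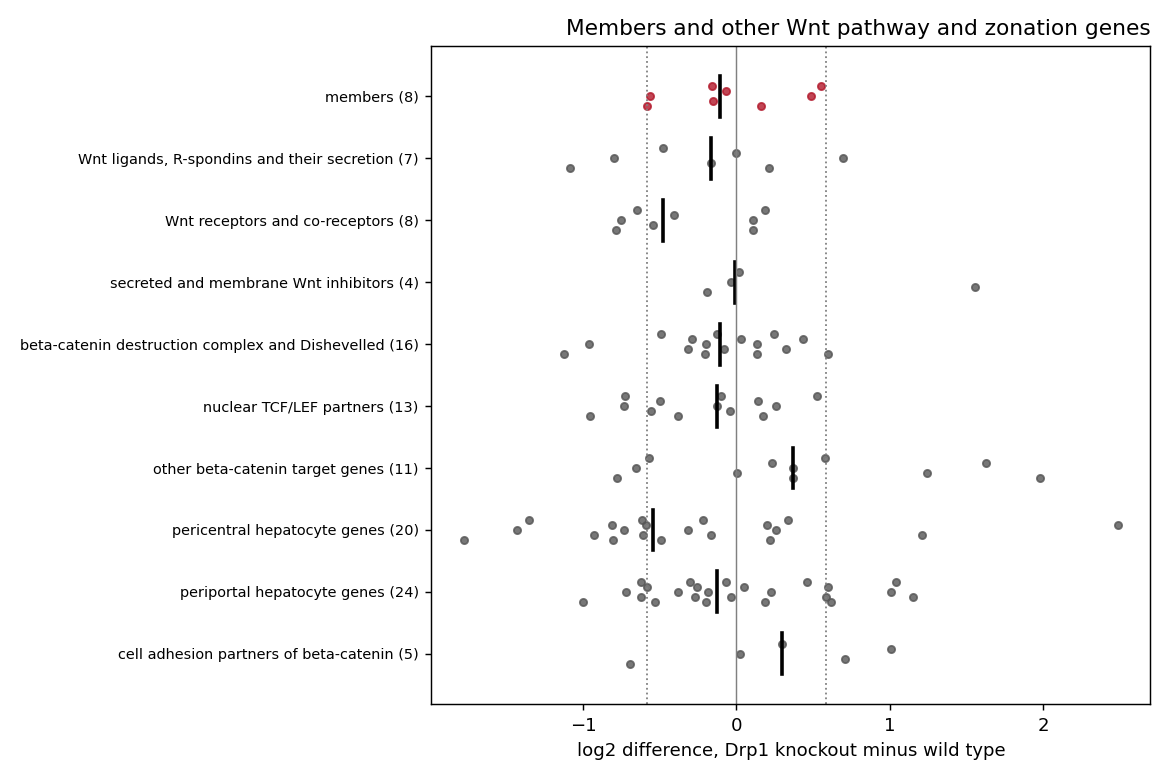
Log2 difference, knockout minus wild type, of the 8 measured members (red) and of the measured genes of 9 lists (grey, number in brackets). Black bars are medians and dotted lines mark 1.5-fold. The members all lie inside the dotted lines, the pericentral median is at -0.54 and the periportal one at -0.13.

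The promoter windows of RefSeq (GRCm38.p6, 250 bases before to 50 after the start) covered 6 of the 10 members with 8 windows. They were searched on both strands for CTTTGA and CTTTGT, 2 forms of the core that TCF and LEF factors bind, which share their first 5 letters and cannot lie at the same position. CTTTGA was found in the windows of Lect2 and Sp5 and CTTTGT in that of Sp5, so that 2 of 8 windows held either one, against 31.2% of all 32851 windows. A match is a run of letters and not a bound site. Beta-catenin bound elsewhere is not covered by these windows, and the differences of these 2 members, -0.56 and -0.16, are set beside the matches as a description only.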

How the data were processed

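Total RNA of 2 livers was labelled with Cy3 and hybridised to 1-colour Agilent mouse arrays on 1 slide, per the labels' protocols and the file headers. The intensities deposited by the authors come from Agilent Feature Extraction, as background-subtracted and detrended spot signals, per the file headers (module version 10.7.1.1, probe positions in mm9). Version 9.5.1.1 is the one named in the submitters' processing notes. Control spots (1377 of each array) and outlier spots (190 on the knockout and 183 on the wild type array) were left out. Signals were divided by the 75th percentile of 43020 spots, log2-transformed and averaged over a probe's copies. A probe was measured where at least 0.5 of its spots were well above background. For a probe measured on 1 array, the bound sets it against the higher of the dim signal and the lowest signal well above background on the other array. A called difference is one of at least 1.5-fold.

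For the lists, 26761 probes were named by RefSeq accession (GRCm38.p6) and 4453 by symbol or synonym, and 8215 kept the file's name. Differences of measured probes were averaged per gene. The deposited value table holds linear intensities with a median of 45.9 in both columns. Its sorted columns differ by at most 0.0417%, so the columns share 1 distribution, and it was an alternative. The others were quantile, median and loess scaling (span 0.3, statsmodels 0.14.6), normexp (offset 50, limma 3.58.1), the 7 E1A spike-in probes measured on both arrays, no filter, a filter at the 25th percentile, and the brightest probe per gene. The steps were tested on simulated data. With 1 array per group, no test was made. The members and lists were chosen with earlier results of these data known. In each list, up to 5 measured genes with the greatest difference and the greatest bound in each direction were named, besides Glul, Oat, Rhbg, Cyp2e1 and Cyp1a2, and members of marker lists with 3 or fewer measured genes. Tek, Krt7, Epcam, Adipoq, Plin1 and Lep are also named, a choice made with their values known. No likeness of pattern was computed, since 2 arrays give none. No other columns of per-sample values were present.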

Additional observations from a re-analysis of the deposited data

How the results depend on the processing

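With 1 array per group, the spread between mice is unknown, and leaving out a replicate was not possible. No paired analysis was possible because each group has 1 array. Weak signals limit Axin2, Znrf3, Wnt2 and the Ensembl probe of Lgr5. In the lists they limit Porcn, Rspo1, Fzd8, Tle4, Myc, Sp8 and Sox9 among others. The causes of the shifts below were not tested. Spike-in scaling adds the same 0.78 to every difference by its construction.

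Of the 9 member values (8 differences and the Axin2 bound), spike-in scaling moved all 9, normexp 2 (Axin2 and Znrf3), and quantile, loess and the deposited values each moved 1 (Lect2, at -0.21, -0.24 and -0.24 in that order). The other settings moved none, but crossing 0 or 1.5-fold was not by itself counted as a move. With centring, Rnf43 changed sign (0.04), and Rspo3 (0.59) and Znrf3 (0.66) passed 1.5-fold. The stricter filter dropped Znrf3 and gives no bound for Axin2, and the unfiltered setting gives no bound either. The member median was 0.67 with spike-in scaling. The number of members at least 1.5-fold higher was 0 as reported, 2 with centring, 1 with loess, 6 with spike-in scaling and 1 without a filter. The number at least 1.5-fold lower was 0 as reported, 1 with quantile, 1 with loess, 2 without a filter and 1 with the deposited table. Over all probes, the share as far below the wild type was 13.5% as reported, 12.1% with quantile, 9.66% with loess, 37.3% without a filter and 11.5% with the deposited table. The share as far above it was 8.60% as reported, 11.6% with centring, 9.97% with loess, 58.7% with spike-in scaling and 11.5% without a filter. The unfiltered member counts are over all 12 probes. They take Wnt2 and the Ensembl probe of Lgr5 as lower and the Axin2 probe at position 4196 as higher. None of these was well above background on both arrays.

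List medians with spike-in scaling were 0.62 for ligands, 0.31 for receptors, 0.78 for inhibitors, 0.68 for the destruction complex, 0.66 for nuclear partners, 1.15 for other targets, 0.24 for pericentral genes, 0.66 for periportal genes and 1.08 for adhesion partners. With loess they were 0.0011 for ligands, 0.24 for inhibitors, 0.032 for the destruction complex, -0.15 for pericentral genes, 0.19 for periportal genes and 0.52 for adhesion partners. Quantile normalization and the deposited table gave the same values to 2 decimals, -0.12 for pericentral genes, 0.18 for periportal genes and 0.51 for adhesion partners. With normexp, ligands were at -0.33 and other targets at 0.16. Without a filter, ligands were at -0.70, inhibitors at -0.81 and other targets at 0.0054. With the stricter filter, ligands were at -0.64, receptors at -0.65, the destruction complex at 0.075 and nuclear partners at -0.38, on fewer genes. That filter left 2 ligands, Wnt1 and Wnt5b, with 0 higher and 1 lower. It left 5 receptors, with 0 higher and 3 lower. The 3 were Fzd4, Lrp5 and Lrp6, the last by its probe at -0.69 alone. Over all genes, 5.70% were then higher and 11.0% lower.

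The number of pericentral genes at least 1.5-fold lower was 10 of 20 as reported, where the share of all genes was 13.4%. It was 11 of 21 without a filter (37.5% of all genes), 10 with the stricter filter (11.0%), 7 with centring (9.55%), 7 with normexp (9.52%), 5 with quantile (11.97%), 5 with loess (9.496%), 5 with the deposited table (11.4%) and 2 with spike-in scaling (1.35%).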

Other observations

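Beta-catenin also links cadherins to the cytoskeleton, and its partners in cell adhesion gave a list of their own. Of 7 genes 5 were measured, with 2 at least 1.5-fold higher in the knockout, 1 lower and a median of 0.30. Over all measured genes, 8.42% were as far higher and 13.4% as far lower, with a median of -0.11. Besides E-cadherin (Cdh1), vinculin (Vcl) was at 0.656 in the knockout against 0.402 in the wild type (0.71), and N-cadherin (Cdh2) at 5.30 in the knockout against 8.57 in the wild type (-0.69, from probes at -0.82 and -0.56). Ctnna1, which ties beta-catenin to actin, was at 13.2 in the knockout against 10.8 in the wild type (0.30), and Ctnnd1 at 5.42 in the knockout against 5.33 in the wild type (0.03). Jup, the relative of beta-catenin in desmosomes, was detected in the knockout alone, as were 7.72% of all probes. Of the 7 macrophage markers, all measured, 2 were higher, 0 lower and the median was 0.16, with summed levels of 49.5 in the knockout and 38.0 in the wild type.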
